A study of Mus musculus with 10 samples.

Results

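A group of genes of the unfolded protein response, chosen by name as sensors, transcription factors and folding proteins of the endoplasmic reticulum (ER), was followed in mouse oocytes matured with or without TubA. They are Hspa5, Calr, Canx, Pdia3, Pdia4, Xbp1, Atf4, Atf6, Ern1 and Ddit3, which makes 10 of the 35501 genes in the files. The level of a gene is the sum of its transcripts in TPM, a measure of transcript abundance already scaled by transcript length, so that levels of different genes can be set side by side. Xbp1 lay below the filter of a mean of 1 TPM over all libraries, and the other 9 genes were among the 11664 that were tested.

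The TubA group held 5 libraries of oocytes in metaphase II, where mature eggs pause until they are fertilised, and the control group held 5 libraries of oocytes at the same stage. Both groups came from ICR mice of 6 to 8 weeks, a non-inbred strain, whose germinal vesicle oocytes matured in culture at 37 °C under 5% CO2 for 16 h. The TubA group had this agent at 0.1 µg/mL for those 16 h, and no genetic change is labelled in either group. TubA commonly stands for tubastatin A, which inhibits the deacetylase HDAC6; the labels give only the short name. Each library is labelled as a single cell, amplified with Smart-seq2, which copies polyadenylated RNA along its whole length. No animal or culture is named, so the p-values rest on the spread from library to library alone, and that spread may be technical.

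The unfolded protein response adjusts the folding capacity of the endoplasmic reticulum to the load of proteins entering it. The sensor kinase and nuclease IRE1, encoded by Ern1, cuts Xbp1 mRNA so that it encodes an active transcription factor. The membrane protein ATF6 is cut in the Golgi to release another, and the kinase PERK slows translation while favouring that of ATF4, which in turn can switch on Ddit3. Their targets include the chaperones and disulfide isomerases of the lumen. An oocyte uses this compartment to make the glycoproteins of the zona pellucida, the coat of the egg.

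No listed gene passed the test between TubA and control oocytes. Of the 9 genes tested, 0 had an adjusted p under 0.05 (limma on log2(TPM + 1), Benjamini-Hochberg adjustment over all genes tested), against a background of 0.00857% of all genes tested. At an unadjusted p under 0.05 stood 0 of the 9, against 2.51% of all genes. In 0 of the 9 did the libraries of the groups fall apart without overlap, against 0.454% of all genes. The log2 difference, taken as TubA minus control in units of log2(TPM + 1) throughout, was positive for 4 genes and negative for 5. Its median was -0.07, beside 0.01 over all genes tested. For 3 genes, Canx, Ern1 and Atf6, the 95% interval stayed inside a 2-fold bound of TPM + 1 up or down, as it did for 57% of all genes. For the other 6 a 2-fold change in at least 1 direction lay inside the interval.

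**Figure D1:**
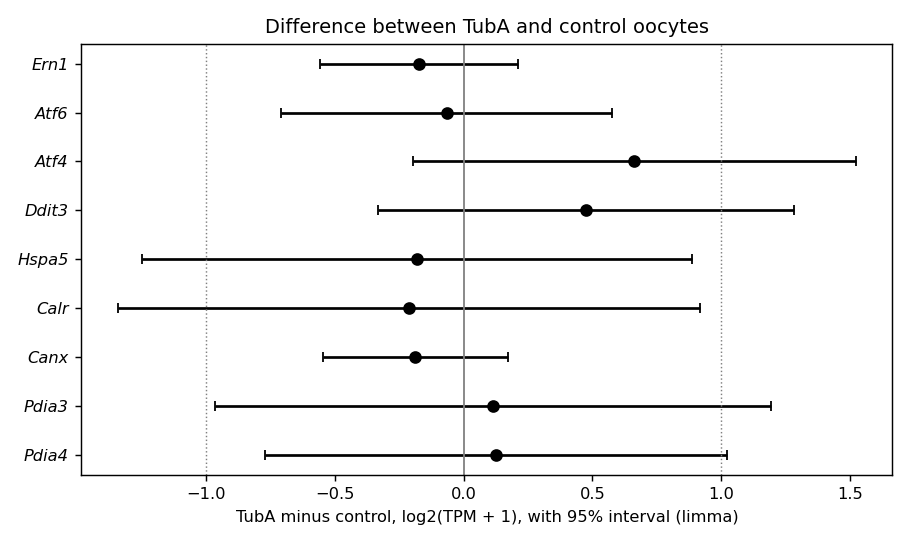
Log2 difference between TubA and control for the 9 genes tested (points, in log2(TPM + 1) units, positive where TubA is higher) with its 95% interval from limma (bars); dotted lines mark a 2-fold change. Every interval crosses 0, that of Atf4 lies farthest to the right, and those of Canx, Ern1 and Atf6 stay between the dotted lines.

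By mean level over the 10 libraries, Calr came first among the listed genes (rank 828 of the 11664 genes tested), followed by Ern1 (841), Canx (1116), Atf4 (1294), Hspa5 (1398) and Pdia3 (1707). Atf6 (4623), Pdia4 (4797) and Ddit3 (6843) lay lower. Some neighbours in this order could not be told apart. Calr was above Ern1 in 5 of 10 libraries, Atf4 above Hspa5 in 6 and Atf6 above Pdia4 in 6. Others kept their places, with Ern1 above Canx, Pdia3 above Atf6 and Ddit3 above Xbp1 in 10 of 10 libraries. The remaining neighbours were ordered in 7 libraries (Canx above Atf4) and in 9 (Hspa5 above Pdia3, and Pdia4 above Ddit3).

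**Figure D2:**
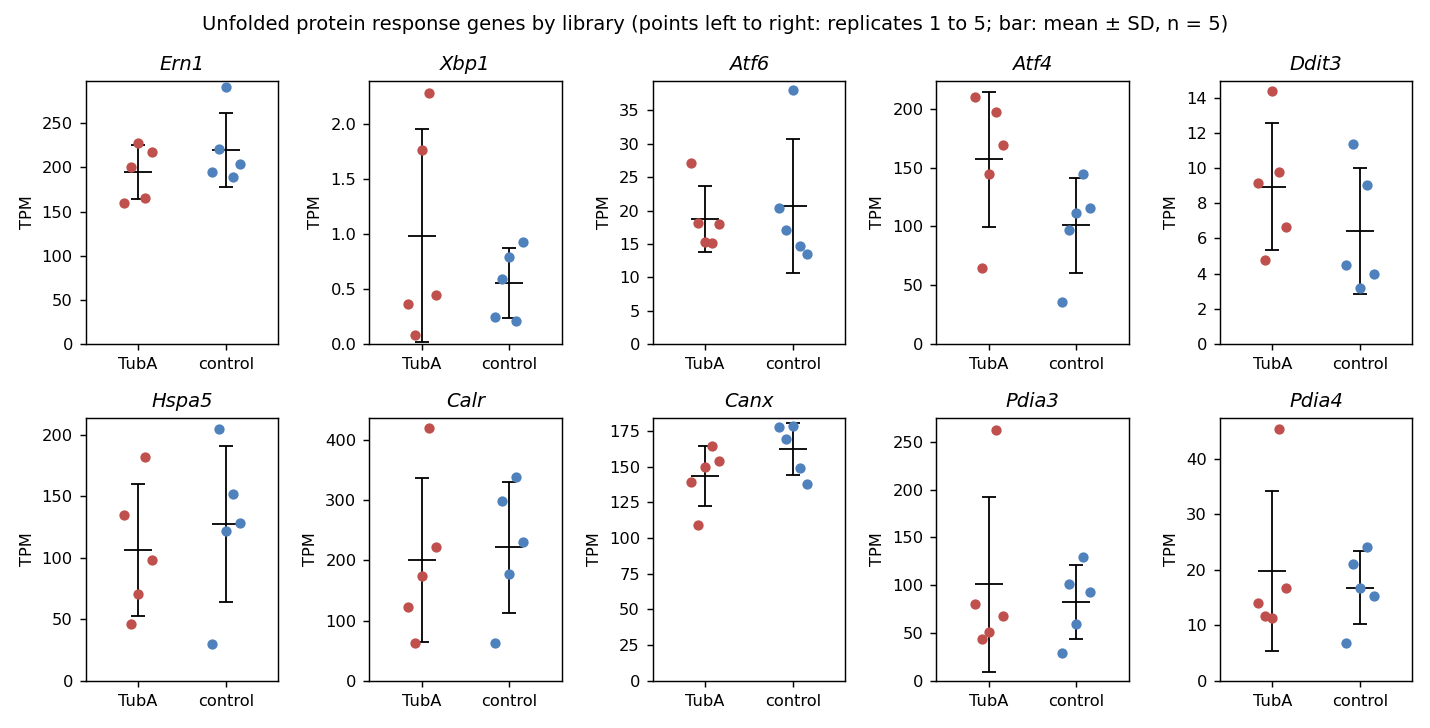
TPM of each listed gene in every library (points, replicates 1 to 5 from left to right, TubA in red and control in blue) with the mean and SD (bars, n = 5 in each group); each panel has its own axis from 0. Canx and Ern1 keep a narrow range, Hspa5, Calr, Pdia3 and Pdia4 a wide one, and the groups overlap in every panel.

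The sensor Ern1 was among the most abundant of the listed genes and among the steadiest. Ern1 (ENSMUSG00000020715.9, chromosome 11, 106394650 to 106487852, minus strand, GRCm38) had 159.9, 201, 228, 165.5 and 217 TPM in TubA replicates 1 to 5, against 195, 221, 291, 189 and 204 TPM in control replicates 1 to 5. Control replicate 3 was the highest, TubA replicates 1 and 4 were the lowest, and the other libraries lay close together. The means were 194 ± 30.5 TPM in TubA and 219.8 ± 41.7 TPM in control oocytes (SD, n = 5 each), a log2 difference of -0.17 with a 95% interval of -0.55 to 0.21 (limma, unadjusted p = 0.35). The spread of Ern1 within groups stood at percentile 6.45 of all genes tested.

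Atf6, the sensor that becomes a transcription factor after cleavage, was about an order of magnitude less abundant. Atf6 (ENSMUSG00000026663.6, chromosome 1, 170704674 to 170867771, minus strand) had 27.1, 18.2, 15.3, 15.1 and 18.1 TPM in TubA replicates 1 to 5, against 20.3, 17.1, 38.0, 14.6 and 13.4 TPM in control replicates 1 to 5. A single library stood out in each group, TubA replicate 1 and control replicate 3, and the others overlapped. The means were 18.8 ± 4.88 TPM in TubA and 20.7 ± 10.03 TPM in control oocytes, with a log2 difference of -0.07 (interval -0.71 to 0.58, limma, unadjusted p = 0.83). Without TubA replicate 1 the difference was -0.20, and without control replicate 3 it was 0.17.

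Xbp1, the substrate of IRE1, was barely measured in these oocytes, while the transcript of its cutting enzyme was abundant. Xbp1 (ENSMUSG00000020484.18, chromosome 11, 5520659 to 5525893, plus strand) had 0.363, 0.0836, 1.76, 2.27 and 0.447 TPM in TubA replicates 1 to 5, against 0.247, 0.588, 0.793, 0.212 and 0.927 TPM in control replicates 1 to 5. TubA replicates 3 and 4 were the only libraries above 1 TPM, and TubA replicate 2 was the lowest of all. The means were 0.986 ± 0.968 TPM in TubA and 0.553 ± 0.320 TPM in control oocytes. With no filter on low values, the log2 difference of Xbp1 was 0.24 (interval -0.48 to 0.96, limma, unadjusted p = 0.47).

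The stretch that IRE1 removes is shown because it decides which form of Xbp1 mRNA the files can measure. It was found by script in the annotated transcripts as 26 bases between a pair of CNGCAGC motifs, lies in exon 4 of Xbp1-201 at 5524279 to 5524304, and is printed with its neighbouring coding bases (GENCODE transcript sequence, GRCm38, chr11:5524249-5524334, plus strand). Capitals mark the removed bases.
Xbp1: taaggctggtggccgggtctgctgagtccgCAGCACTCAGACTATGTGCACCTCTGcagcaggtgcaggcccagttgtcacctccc
The 3 coding transcripts of the annotation, Xbp1-201, Xbp1-203 and Xbp1-204, all hold it, and no annotated transcript is the spliced form. The files therefore give no value for spliced Xbp1, and a share of spliced Xbp1 mRNA was not computed. The retained-intron transcript Xbp1-202 was listed at 0 in every library.

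Atf4 had the largest difference of the listed genes, with levels higher in most TubA libraries. Atf4 (ENSMUSG00000042406.8, chromosome 15, 80255184 to 80257541, plus strand), the transcription factor of amino acid and stress responses, had 209.9, 64.9, 144.4, 197 and 169 TPM in TubA replicates 1 to 5, against 35.8, 97.0, 112, 144.2 and 116 TPM in control replicates 1 to 5. The groups overlapped through TubA replicate 2, which was below all control libraries but replicate 1. The other 4 TubA libraries were above every control library, TubA replicate 3 only just. The means were 157 ± 57.4 TPM in TubA and 100.8 ± 40.2 TPM in control oocytes, a log2 difference of 0.66 with a 95% interval of -0.20 to 1.52. It did not pass the test (limma, unadjusted p = 0.12, adjusted p = 0.9999). Without TubA replicate 2 the difference was 0.95 (limma, unadjusted p = 0.020, adjusted p = 0.99998). Without control replicate 1 it was 0.33 (limma, unadjusted p = 0.32). These were the extremes over all the libraries left out in turn.

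Ddit3, encoding CHOP, a transcription factor downstream of ATF4 that promotes cell death under lasting stress, stayed low. Ddit3 (ENSMUSG00000025408.15, chromosome 10, 127290774 to 127296288, plus strand) had 9.17, 4.78, 14.4, 9.78 and 6.65 TPM in TubA replicates 1 to 5, against 4.49, 11.4, 3.22, 9.05 and 4.01 TPM in control replicates 1 to 5. All 5 TubA libraries were above the control median, but control replicates 2 and 4 lay among them. The means were 8.95 ± 3.63 TPM in TubA and 6.43 ± 3.57 TPM in control oocytes (log2 difference 0.47, interval -0.33 to 1.28, limma, unadjusted p = 0.23). A second gene ID with the symbol Ddit3 was listed at 0 in every library.

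The ER chaperone genes are the textbook targets of ATF6 and XBP1, through a bipartite promoter element that was searched for as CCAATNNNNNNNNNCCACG on both strands. Of the 10 listed genes, 9 had a promoter of 250 bases before to 50 bases after the gene's start in RefSeq (GRCm38.p6), and 3 of these, Hspa5, Calr and Canx, held the element. It occurred in 39 of all 32851 promoters of that table (0.119%), and in 7 of 64 promoters of other genes of the pathway (Calr4, Creld2, Derl3, Dnajc3, Hsp90b1, Pdia6 and Syvn1). The match is one of letters and does not show a site in use. The element is printed with 5 bases on each side, on the strand of the gene, for the 3 chaperones whose levels follow. Capitals mark its outer parts, CCAAT and CCACG, which in Calr read on the opposite strand as CGTGG and ATTGG.
Hspa5 (chr2:34772020-34772048, plus strand): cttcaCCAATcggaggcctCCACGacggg
Calr (chr8:84847070-84847098, minus strand): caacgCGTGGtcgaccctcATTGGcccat
Canx (chr11:50325795-50325823, minus strand): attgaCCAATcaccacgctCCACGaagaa
The element lies 47 to 65 bases before the start in Hspa5, 144 to 162 in Calr and 127 to 145 in Canx.

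Hspa5 encodes BiP, the Hsp70 chaperone of the lumen that also holds the sensors inactive. Hspa5 (ENSMUSG00000026864.13, chromosome 2, 34771970 to 34777547, plus strand) had 135, 46.1, 70.7, 182 and 98.2 TPM in TubA replicates 1 to 5, against 30.03, 205, 122, 152 and 128 TPM in control replicates 1 to 5. Both the lowest and the highest library were controls, replicates 1 and 2, and they differed 6.83-fold. The TubA libraries lay between them. The means were 106 ± 53.5 TPM in TubA and 127 ± 63.6 TPM in control oocytes, with a log2 difference of -0.18 (interval -1.25 to 0.89, limma, unadjusted p = 0.72).

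Calr encodes calreticulin, the soluble lectin chaperone that binds glycoproteins and calcium. Calr (ENSMUSG00000003814.8, chromosome 8, 84841850 to 84846934, minus strand) had 123, 62.6, 174, 418 and 222 TPM in TubA replicates 1 to 5, against 63.1, 297, 177, 339 and 229.9 TPM in control replicates 1 to 5. TubA replicate 4 was the highest library and TubA replicate 2 the lowest, with control replicate 1 almost as low. The means were 199.97 ± 136 TPM in TubA and 221 ± 108 TPM in control oocytes (log2 difference -0.21, interval -1.34 to 0.92, limma, unadjusted p = 0.69).

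Canx encodes calnexin, the membrane-bound counterpart of calreticulin in the same glycoprotein folding cycle, and varied far less. Canx (ENSMUSG00000020368.15, chromosome 11, 50293961 to 50325673, minus strand) had 139, 109, 149.5, 164 and 154 TPM in TubA replicates 1 to 5, against 178, 169, 178, 149 and 138 TPM in control replicates 1 to 5. All 5 TubA libraries were below the control median, but control replicates 4 and 5 lay among them. The means were 143 ± 20.9 TPM in TubA and 162 ± 18.2 TPM in control oocytes, a log2 difference of -0.19 (interval -0.54 to 0.17, limma, unadjusted p = 0.28). From the lowest to the highest library Canx differed 1.63-fold, against 6.68-fold for Calr. The spread of Canx within groups stood at percentile 2.67 of all genes tested, and that of Calr at percentile 90.0.

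The disulfide isomerases Pdia3 and Pdia4 were each dominated by a single TubA library. Pdia3 (ENSMUSG00000027248.13, chromosome 2, 121413775 to 121438687, plus strand), which works on glycoproteins held by calreticulin and calnexin, had 80.2, 43.4, 50.95, 263 and 67.4 TPM in TubA replicates 1 to 5, against 28.9, 100.99, 59.7, 129 and 92.9 TPM in control replicates 1 to 5. Apart from TubA replicate 4, every TubA library was below the control median. The means were 100.9 ± 91.5 TPM in TubA and 82.3 ± 38.8 TPM in control oocytes (log2 difference 0.11, interval -0.96 to 1.19, limma, unadjusted p = 0.82), and without TubA replicate 4 the difference was -0.31.

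Pdia4 (ENSMUSG00000025823.9, chromosome 6, 47796141 to 47813430, minus strand), another isomerase of the lumen, had 14.03, 11.7, 11.3, 45.3 and 16.6 TPM in TubA replicates 1 to 5, against 6.75, 20.96, 16.7, 24.1 and 15.3 TPM in control replicates 1 to 5. Its highest library was again TubA replicate 4 and its lowest control replicate 1. The means were 19.8 ± 14.4 TPM in TubA and 16.8 ± 6.59 TPM in control oocytes (log2 difference 0.13, interval -0.77 to 1.02, limma, unadjusted p = 0.76). Without TubA replicate 4 the difference of Pdia4 was -0.21.

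Hspa5, Calr, Pdia3 and Pdia4 went up and down together over the libraries of both groups taken as one. Canx, the other folding gene of the list, did not follow these 4 genes. No correlation was computed within a group, and how many of all genes share this pattern was not counted. The grouping of these 4 genes was not planned and leaves out Canx, so their correlations describe the set and do not test it. Over the 10 libraries the 6 pairs among these 4 genes had Pearson's r between 0.83 and 0.96 on log2(TPM + 1) (a description over n = 10 libraries of both groups, whose values share a common total). Summed, the 4 genes had 352, 164, 307, 908 and 405 TPM in TubA replicates 1 to 5, against 129, 625, 376, 644 and 466 TPM in control replicates 1 to 5. Control replicate 1 and TubA replicate 2 were low and TubA replicate 4 was high. Atf4 had r between 0.66 and 0.74 with the 4 genes. For 9 other genes of the pathway, picked without a set rule, the correlation with Hspa5 varied. It was 0.95 for Prkcsh, 0.92 for Hsp90b1, 0.86 for Derl3 (a gene of ER-associated degradation), 0.73 for P4hb and 0.63 for Calr3. It was 0.58 for Pdia6, 0.53 for Hyou1, 0.11 for Pdia5 and -0.24 for Txndc5, so that not all 9 followed Hspa5. Canx had r between 0.11 and 0.35 with the 4 genes, and Ern1 between -0.40 and -0.02. The promoter element shown above was found in Hspa5, Calr and Canx and not in Pdia3 or Pdia4. Whether the element has a part in this pattern was not tested.

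A like order of libraries was seen in transcripts of the egg coat. Zp1, Zp2 and Zp3, which encode proteins of the zona pellucida, summed to 7565, 1085, 1918, 15729 and 4011 TPM in TubA replicates 1 to 5, against 604, 8621, 4021, 11172 and 6498 TPM in control replicates 1 to 5. As in the sum of the 4 folding genes, TubA replicate 4 was the highest and control replicate 1 the lowest. With Hspa5 the correlation over the 10 libraries was 0.97 for Zp1, 0.97 for Zp2 and 0.90 for Zp3. It was 0.09 for Gdf9, a growth factor secreted by the oocyte, -0.39 for the oocyte marker H1foo, and -0.55 for Mos, the kinase of the metaphase II arrest. Gdf9, H1foo and Mos were picked without a set rule. Atf4 had r of 0.79 with Zp1, 0.82 with Zp2 and 0.71 with Zp3, beside 0.54 with Gdf9, -0.44 with H1foo and -0.12 with Mos. RNA quality and depth of the libraries are not known, and their part in this order was not tested.

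The 3 genes whose pattern was most like that of Hspa5, by Pearson's r on log2(TPM + 1) over the 10 libraries among the 11664 genes tested, were Ergic3 (0.98), Srpr (0.98) and Lrpap1 (0.97). Ergic3 encodes a protein of the compartment between the endoplasmic reticulum and the Golgi. It had 288, 27.0, 71.0, 345 and 145 TPM in TubA replicates 1 to 5, against 15.9, 417, 154, 381 and 302 TPM in control replicates 1 to 5. Control replicate 1 and TubA replicate 2 were the lowest here too. Srpr encodes a subunit of the receptor for the signal recognition particle, which brings ribosomes to the endoplasmic reticulum. It ran between 22.3 and 41.1 TPM in TubA and between 19.8 and 42.3 TPM in control libraries. Lrpap1 encodes a chaperone of lipoprotein receptors in the endoplasmic reticulum. It ran between 5.09 and 114 TPM in TubA and between 0.482 and 76.9 TPM in control libraries.

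**Figure D3:**
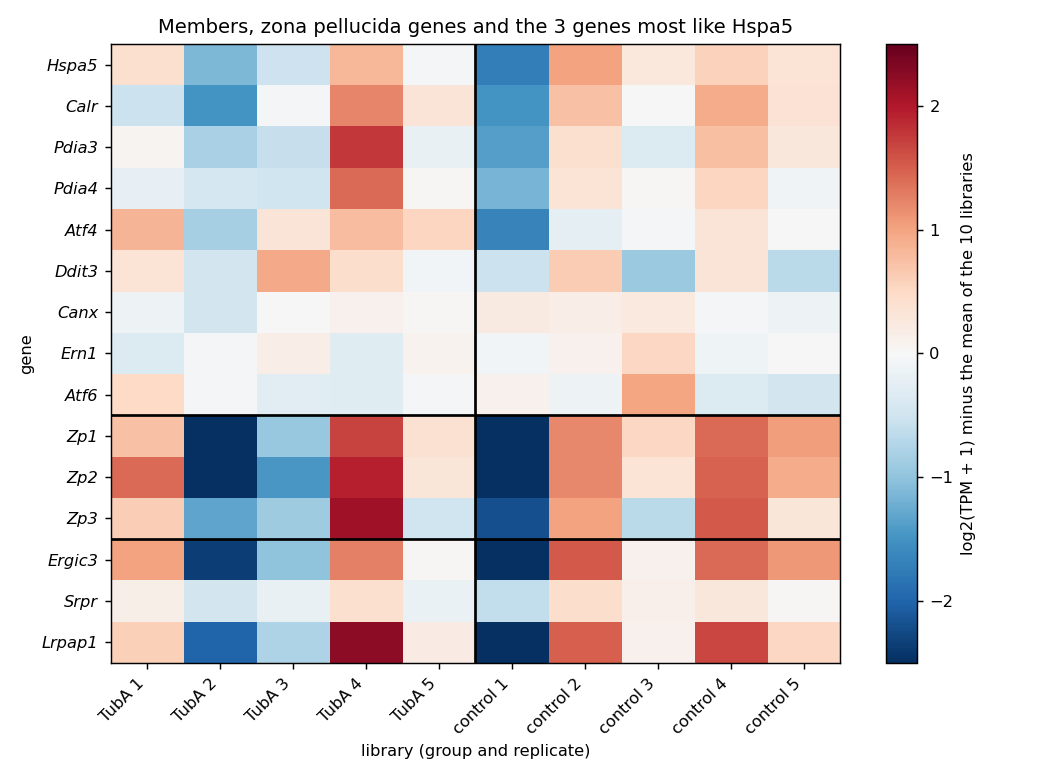
Log2(TPM + 1) minus the mean of the 10 libraries (colour, capped at the ends of the scale) for the 9 listed genes tested (top), 3 zona pellucida genes (middle) and the 3 genes most like Hspa5 (bottom), with the TubA libraries left of the line and the control libraries right of it. Control 1 and TubA 2 are blue and TubA 4 is red in Hspa5, Calr, Pdia3, Pdia4, the zona pellucida genes and the bottom block. Atf4 and, more faintly, Ddit3 have these colours too, while Canx, Ern1 and Atf6 lack this order.

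Single libraries also stood at an extreme for many genes outside the list. Control replicate 1 was the lowest library in 4 of the 9 listed genes tested, and in 21.6% of all genes tested. TubA replicate 4 was the highest in 3 of the 9, and in 21.1% of all genes. Control replicate 3 was the highest in 3 of the 9, and in 21.5% of all genes. A clustering of these same values was cut at 2 sets, a number that was imposed, and the sets cross the groups. Set A held TubA replicates 1 and 2 and control replicates 1 to 3. Set B held TubA replicates 3 to 5 and control replicates 4 and 5. The log2 difference was 0.67 within set A and 0.38 within set B for Atf4, 0.22 and 0.61 for Ddit3, and -0.21 and -0.37 for Hspa5, with the same direction in both sets. Calr also had 1 direction, at -0.76 and -0.14. For Canx (-0.50 and 0.12), Ern1 (-0.37 and 0.04), Atf6 (-0.09 and 0.19), Pdia4 (-0.07 and 0.09), Pdia3 (0.07 and -0.18) and Xbp1 (-0.33 and 0.62) the direction differed between the sets. No difference between the sets was tested.

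At the level of transcripts, the minor form of Hspa5 had a larger share of the gene in TubA oocytes. The difference did not pass an adjustment over all genes, which no single gene could pass alone in this design. Hspa5-201 and Hspa5-202 share the same 1965 coding bases, spread over exons from 34772322 to 34776110. Hspa5-201 is annotated from 34771970 to 34777547 and Hspa5-202 from 34772095 to 34776531, so that Hspa5-201 starts farther upstream and ends farther downstream, and the promoter element printed above lies inside its first exon (34771970 to 34772146). Hspa5-201 made up 7.76%, 8.30%, 5.85%, 6.56% and 8.77% of Hspa5 TPM in TubA replicates 1 to 5, against 3.67%, 3.03%, 6.49%, 3.16% and 3.41% in control replicates 1 to 5. Control replicate 3 lay above TubA replicate 3, and the other 4 control libraries lay below all TubA libraries. The means were 7.45 ± 1.22% in TubA and 3.95 ± 1.44% in control oocytes (SD, n = 5 each), a difference of 3.49 percentage points (exact two-sided permutation p = 0.016, where 0.0079 is the smallest p the design allows).

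This comparison was added after the shares had been seen, and over all 5517 genes with a second transcript at a mean of at least 1 TPM the adjusted p was 1.0. Since no p could go below 0.0079, a gene could pass that adjustment only together with many others. The adjusted p therefore cannot decide about Hspa5-201 alone. An exact permutation p under 0.05 was reached by 4.22% of the 5517 genes, and among the 6 listed genes that have a second transcript by 1. The second transcript of Canx, Canx-205, made up 5.14 ± 1.70% in TubA and 3.01 ± 1.43% in control oocytes, with overlap (exact two-sided permutation p = 0.071). Ddit3 was divided more evenly, with Ddit3-203 at 45.6 ± 15.7% in TubA and 37.0 ± 28.0% in control oocytes (exact two-sided permutation p = 0.57). The second transcripts of Ern1, Pdia3 and Atf4 had an exact two-sided permutation p of 0.58, 0.84 and 0.86. In the level of a transcript, 0 of the 15 transcripts of listed genes that were tested passed (limma, adjusted over 21838 transcripts), against 0.00458% of all transcripts. At an unadjusted p under 0.05 stood 0 of the 15, against 3.15%. The level of Hspa5-201 had a log2 difference of 0.61 (limma, unadjusted p = 0.19). It ran between 3.83 and 11.9 TPM in TubA and between 1.10 and 7.91 TPM in control libraries, so its share rests on low values.

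**Figure D4:**
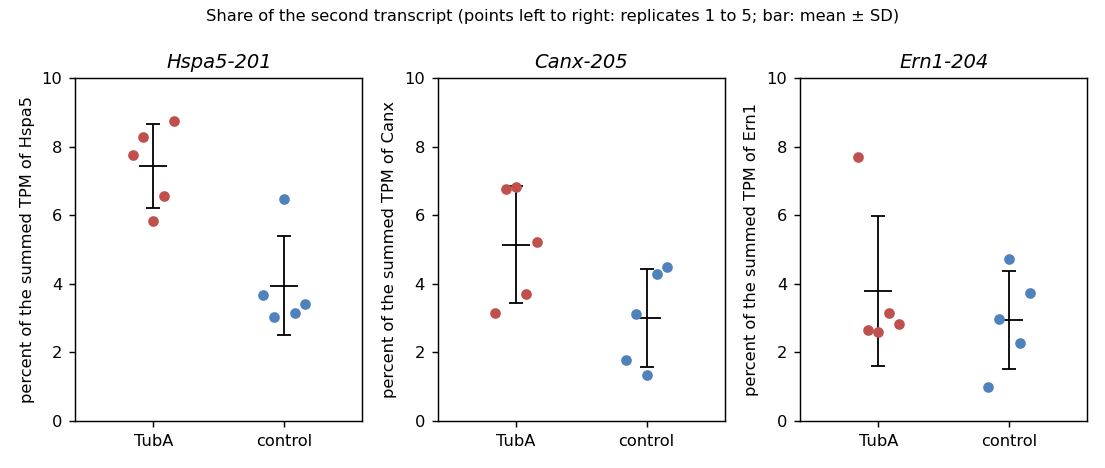
Percent of the summed TPM of the gene held by the second transcript of Hspa5, Canx and Ern1 in every library (points, replicates 1 to 5 from left to right, TubA in red and control in blue) with the mean and SD (bars, n = 5 in each group). In Hspa5 the TubA libraries lie between 5.85% and 8.77% and all control libraries but replicate 3 lie below them, while Canx and Ern1 overlap more.

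The other genes of the pathway were counted over 7 lists by role, together 80 genes, of which 66 were tested. Of these, 0 passed the adjusted threshold (limma) in either direction, 0 had an unadjusted p under 0.05 and 0 had groups without overlap, against the same background shares as above. The log2 difference was positive for 30 genes and negative for 36 (54.5%, beside 48.6% of all genes tested), with a median of -0.03. The smallest unadjusted p was 0.053, for Dnajb9, a J-domain cochaperone of BiP, at 2.42 ± 1.72 TPM in TubA and 4.41 ± 1.42 TPM in control oocytes (log2 difference -0.77). The differences reached from -0.82 for the peroxiredoxin Prdx4 to 0.74 for the BiP exchange factor Hyou1. Dnajb9, Prdx4 and Hyou1 are named here because of their values.

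Among the 12 genes listed as the Hsp70 system of the lumen, 8 were negative (66.7%, beside 48.6% of all genes tested). The median log2 difference was -0.09, and the direction of the list was not tested. The most abundant of the list, Hsp90b1, encodes the Hsp90 paralog GRP94 and not an Hsp70. Hsp90b1 stood at 299 ± 117 TPM in TubA and 367 ± 145 TPM in control oocytes (log2 difference -0.30). Dnajc3, encoding a cochaperone that also inhibits PERK, stood at 191 ± 27.3 TPM in TubA and 215 ± 25.5 TPM in control oocytes (-0.17).

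In the lectin folding cycle 6 of 8 genes were tested, with a median of 0.08. Its most abundant members were paralogs of calreticulin. Calr3, known from the testis, stood at 132 ± 28.9 TPM in TubA and 100.3 ± 37.1 TPM in control oocytes (log2 difference 0.48, limma, unadjusted p = 0.15). Calr4 stood at 62.8 ± 18.9 TPM in TubA and 45.9 ± 12.2 TPM in control oocytes (0.44, limma, unadjusted p = 0.12). Calr itself, by contrast, had -0.21, and the difference between these genes was not tested. Of the 15 disulfide isomerases and oxidases 12 were tested, with a median of 0.05. Txndc5 stood at 195 ± 37.4 TPM in TubA and 187 ± 30.9 TPM in control oocytes (0.05), and Pdia6 at 179 ± 62.9 TPM in TubA and 154 ± 85.2 TPM in control oocytes (0.32).

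For the PERK branch 8 of 12 genes were tested, with a median of -0.12. The kinase gene itself, Eif2ak3, stood at 66.0 ± 17.0 TPM in TubA and 60.4 ± 10.2 TPM in control oocytes (log2 difference 0.10). Ppp1r15a, encoding GADD34, which restores translation, stood at 107.5 ± 31.1 TPM in TubA and 104 ± 21.7 TPM in control oocytes (0.01). The ATF4 and CHOP targets Atf3, Trib3 and Chac1 lay below the filter, and Trib3 was listed at 0 in 9 of 10 libraries. Other genes that ATF4 or cell stress can raise were tested and did not pass. Asns, encoding asparagine synthetase, stood at 8.36 ± 4.64 TPM in TubA and 11.7 ± 3.52 TPM in control oocytes. Its log2 difference was -0.51 (interval -1.25 to 0.22, limma, unadjusted p = 0.16). Ddit4 stood at 10.9 ± 5.91 TPM in TubA and 17.7 ± 17.8 TPM in control oocytes (-0.30), and Sesn2 at 2.53 ± 1.21 TPM in TubA and 2.78 ± 1.12 TPM in control oocytes (-0.11). Asns, Ddit4 and Sesn2 are named in addition to the most abundant genes of the branch. Of the 8 genes tested in the branch, 3 were positive and 5 negative (62.5%, beside 48.6% of all genes tested), with Nfe2l2 the highest at 0.17. In the ATF6 branch 9 of 11 genes were tested, with a median of -0.11. Creb3l4, a membrane-bound relative of ATF6, stood at 473 ± 55.0 TPM in TubA and 489 ± 91.2 TPM in control oocytes (-0.03), above every listed gene in mean level. Atf6b stood at 38.3 ± 17.6 TPM in TubA and 40.0 ± 6.04 TPM in control oocytes (-0.22).

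The IRE1 branch had 4 of 6 genes tested and a median of 0.05. Tmbim6, encoding the IRE1 regulator Bax inhibitor-1, stood at 343 ± 44.3 TPM in TubA and 322 ± 80.9 TPM in control oocytes (log2 difference 0.12), and the kinase gene Mapk8 at 43.0 ± 18.6 TPM in TubA and 40.7 ± 11.6 TPM in control oocytes (0.01). In degradation of misfolded proteins 15 of 16 genes were tested, with a median of -0.15. Vcp, the segregase that pulls proteins out of the membrane, stood at 83.7 ± 12.2 TPM in TubA and 103 ± 29.6 TPM in control oocytes (-0.26). It shares 46.3% of its sequence words with other genes in the files, so its level is uncertain. No listed gene of the 10 shares more than 2.40% of its words.

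**Figure D5:**
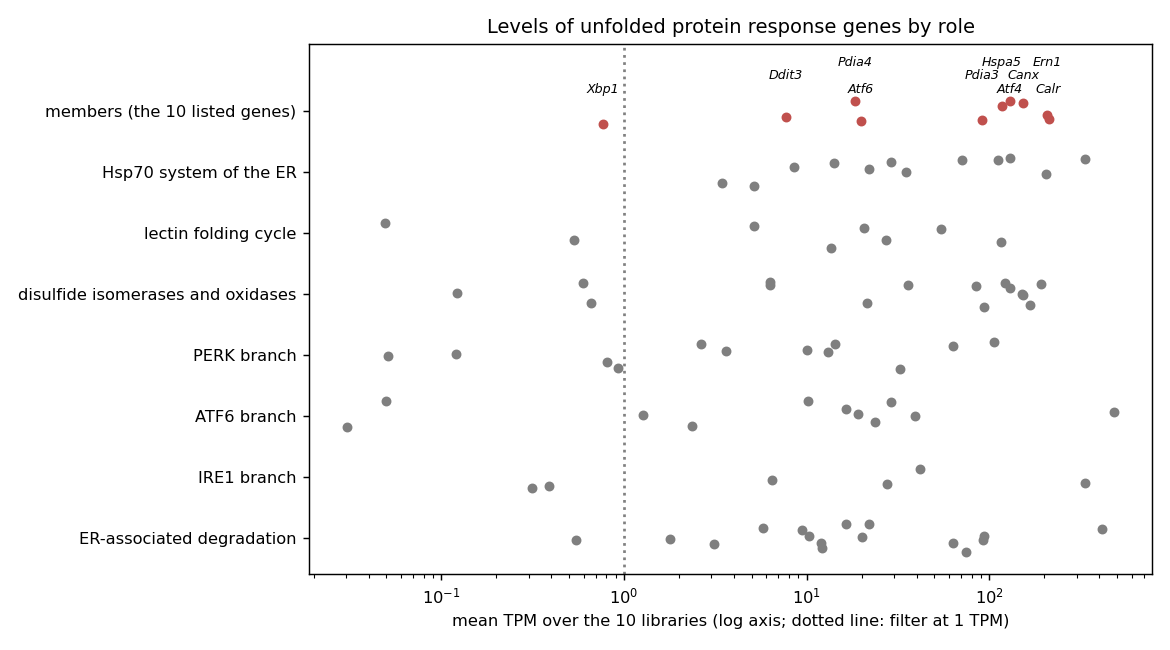
Mean TPM over the 10 libraries (log axis) of the 10 listed genes (top, red) and of the other genes of the pathway in 7 lists by role (grey), with 1 point a gene; the vertical scatter within a list has no meaning, and the dotted line is the filter at 1 TPM. Calr, Ern1, Canx, Atf4, Hspa5 and Pdia3 lie to the right, Atf6, Pdia4 and Ddit3 in the middle, and Xbp1 below the filter.

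The libraries carried the defining transcripts of oocytes at high levels and markers of other cells at low summed levels. All 10 oocyte markers had a mean of at least 1 TPM, and together summed to between 29463 and 39829 TPM in TubA and between 28373 and 39517 TPM in control libraries. Of 9 cumulus and granulosa markers 1 reached 1 TPM, Amh and Foxl2 were listed at 0 throughout, and the sums lay between 9.77 and 18.97 TPM in TubA and between 8.26 and 13.9 TPM in control libraries. Of 8 theca and stroma markers 1 reached 1 TPM, and their sums lay between 4.30 and 13.2 TPM in TubA and between 3.25 and 17.3 TPM in control libraries. Of 8 blood, immune and endothelial markers 5 reached a mean of 1 TPM, and their sums lay between 25.9 and 41.3 TPM in TubA and between 25.96 and 60.7 TPM in control libraries. TPM keeps no sequencing depth, so the depth is unknown and no counting interval is given.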

How the data were processed

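Deposited values were TPM per Ensembl transcript, 1 file for each of the 10 libraries (5 TubA, 5 control, grouped by their titles); the unit was read from the values, which sum to 1000000 in each library. Per the submitters' processing notes, reads were handled with tools that include Bowtie 0.12.2, on mm10. Not given in the sources used here are the program that gave abundances, its annotation release and strandedness, so reads of overlapping or antisense genes cannot be told apart.

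Transcripts were summed per gene with GENCODE M21 (GRCm38, the assembly of mm10), which matched 113492 of 115270 transcripts. The unmatched ones held 0.531% to 0.753% of TPM and were left out. Limma 3.58.1 (R 4.3.3) with an intensity trend, robust moderation and no covariates was fitted to log2(TPM + 1) of the 11664 genes whose mean reached 1 TPM, with Benjamini-Hochberg adjustment at 0.05. This scale understates changes of low genes. The fit and the permutation test were tested on simulated data. There each gene varied independently, without the library patterns that genes share here, and how often a 2-fold change was found is not given here. Tables came from pandas 2.3.3 and numpy 2.4.6 in Python 3.11.15, and figures from matplotlib 3.10.9. Sequence sharing is the percentage of words of 31 bases found in any other gene listed above 0.

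The 10 genes and all lists were chosen with earlier results of these data known. All 10 are named, with the 2 most abundant genes of each role list where none passed (1 of these is not reported here), and the 3 genes of highest correlation with Hspa5. The planned test of Xbp1 transcript shares could not be run, since no spliced transcript is annotated. Transcript shares of all genes (second transcript by mean TPM, totals above 0 in every library) were compared by an exact permutation test over the 252 assignments of libraries, added after seeing the data. Alternatives were other pseudocounts, filters, quantile normalization, library weights, the replicate block, the library sets (complete-linkage clustering of correlations, not a label), coding transcripts only, and each library left out.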

Additional observations from a re-analysis of the deposited data

Results flagged for a closer look

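Of 20 groups of 5 libraries examined, 10 genes in 2 groups, 4 held a library far from the rest by Dixon's criterion. Chance gives about 1 in 20 for independent groups of normally distributed values. The TPM used here were not put on a log scale, and Pdia3 and Pdia4 go together (r = 0.96), so the 2 numbers are not directly comparable. TubA replicate 4 was the highest of its group for Pdia3, at 263 TPM with the next library at 80.2 TPM. The same library was the highest for Pdia4, at 45.3 TPM with the next at 16.6 TPM. For Atf6, TubA replicate 1 had 27.1 TPM with the next TubA library at 18.2 TPM, and control replicate 3 had 38.0 TPM with the next control library at 20.3 TPM. The log2 differences without these libraries stand beside each gene in the report.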

How the results depend on the processing

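The listed genes gave 0 calls at an adjusted p of 0.05 under each of 19 alternatives (limma, smallest adjusted p 0.97), as did the other pathway genes. Transcripts of the listed genes gave 0 calls under the same alternatives but that of coding transcripts only, which was not run for them. Over all genes the 1 call became 0 when genes had to reach a mean of 5 TPM, 0 with the replicate block and 0 with coding transcripts only. At an unadjusted p under 0.05 the 293 genes became 166 with the filter at 5 TPM, 549 with no filter, 539 with library weights and 452 without control replicate 3. Of 171 values of listed genes under alternatives, 157 kept their direction and 14 reversed. With library weights these were Pdia4 (-0.18), Atf6 (0.13) and Pdia3 (-0.38), and with the library set as a term Atf6 (0.050) and Pdia3 (-0.051); the cause was not tested. With each library left out in turn, the log2 difference ran between -0.61 and 0.14 for Calr, -0.63 and 0.077 for Hspa5, -0.21 and 0.28 for Pdia4, -0.20 and 0.17 for Atf6, and -0.31 and 0.33 for Pdia3. It kept its sign between 0.33 and 0.95 for Atf4, 0.30 and 0.69 for Ddit3, -0.24 and -0.09 for Canx, and -0.23 and -0.07 for Ern1.

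Same-numbered libraries of the groups correlated above 0.1 in 2 of 5 numbers (r of residuals from -0.31 to 0.48), and 2 of 5 correlated best with their own number, so the numbers were not taken as pairs. With the replicate block, the Hspa5-201 share differed by 3.49 points as without it (exact permutation p = 0.13 over sign changes, which cannot go below 0.0625). It ran between 3.17 and 4.13 points with each library left out (exact permutation p between 0.0079 and 0.032), and exchanging libraries only within library sets gave an exact permutation p = 0.02. With each library left out, the share differences ran between 1.71 and 2.63 points for Canx-205, -0.13 and 1.29 for Ern1-204, -0.74 and 18.8 for Ddit3-203, -0.043 and 2.24 for Pdia3-203, and -0.57 and 1.0049 for Atf4-202. Canx-205 reached an exact permutation p of 0.048 without TubA replicate 1, and between 0.048 and 0.13 over all libraries left out. No listed gene has a copy sharing 20% of its words, so summing with copies gave no value. TPM carries no depth, so what depth limits is not known.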
